A study of Homo sapiens with 4 samples.

Results

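SREBP regulators and cholesterol transport genes were followed in DU145 cells treated with compounds described as inhibitors of PSF. The group was chosen by symbol and holds 8 genes: the transcription factor genes SREBF1 and SREBF2, SCAP, INSIG1 and INSIG2, which hold the factors in check or escort them, STARD4 and NPC1, which move cholesterol inside the cell, and MYLIP, which encodes a ligase that removes the LDL receptor. Of these 8, 7 were measured by 1 probe set each, among 17687 named genes in all, and MYLIP was not analysed here. DU145 is an androgen-independent cell line from a human prostate cancer, and PSF, the product of SFPQ, is a nuclear RNA-binding protein of splicing and transcription. Cells were kept in RPMI medium with fetal bovine serum and exposed for 48 h to No.10-3 at 5 µM, 2 µM C-30, 0.5 µM C-30 or vehicle. Each condition had 1 array, so the values carry no error and no test, and all statements describe these 4 arrays.

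SREBPs are made as precursors in the membrane of the endoplasmic reticulum, bound to the escort protein SCAP. When sterols are scarce, SCAP carries them to the Golgi, where proteases release the active factor. When sterols are plentiful, INSIG proteins hold SCAP back, and oxysterols activate LXR, which drives SREBF1, MYLIP and exporters of cholesterol. SREBP-2 mainly drives sterol synthesis and uptake, SREBP-1 mainly fatty acid synthesis, and both SREBF2 and INSIG1 are themselves SREBP targets.

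The values are log2 RMA signals, in which a difference of 1 is called 2-fold on the scale of these values. A gene entered a comparison when the higher of its signals was at or above 5.56, the median over named probe sets, and all 7 genes did so in each comparison. INSIG2 passed only through the treated arrays. A probe set counted as above background on an array when it exceeded the 95th percentile of negative controls there, which was 7.06 with No.10-3, 7.15 with 2 µM C-30, 7.11 with 0.5 µM C-30 and 7.32 with vehicle. SREBF2, SCAP and NPC1 were above it on all 4 arrays, SREBF1 and INSIG1 on 3, STARD4 on 1 and INSIG2 on none. Of 7 measured epithelial markers of the line, EPCAM, KRT8, KRT18, KRT7 and KRT19 were above background on every array, whereas KRT5 and CDH1 were on none, and all 6 measured luminal and androgen receptor markers were under it. The 63 ERCC control probe sets had a median difference from vehicle of -0.16 with No.10-3, -0.06 with 2 µM C-30 and -0.04 with 0.5 µM C-30. Their robust SDs were 0.126, 0.271 and 0.166. Whether ERCC RNA was added to the samples was not tested.

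The promoters of SREBF2, SREBF1, INSIG1 and INSIG2 are shown because these are the genes past 2-fold and the partner of INSIG2. INSIG2 has 2 such starts in the table, of which the upstream one is shown. Each line gives the 250 bases before the gene's RefSeq start in GRCh38.p14, in the direction of the gene. Capitals mark the sterol response element core TCACNCCAC and the NF-Y box CCAAT, on either strand.
SREBF2 (chr22:41832855-41833104, plus strand): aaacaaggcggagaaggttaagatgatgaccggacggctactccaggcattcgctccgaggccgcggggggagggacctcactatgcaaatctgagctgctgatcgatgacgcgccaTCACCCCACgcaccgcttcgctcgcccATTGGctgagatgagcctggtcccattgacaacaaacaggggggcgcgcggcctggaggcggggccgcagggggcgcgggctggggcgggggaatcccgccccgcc
SREBF1 (chr17:17836987-17837236, minus strand): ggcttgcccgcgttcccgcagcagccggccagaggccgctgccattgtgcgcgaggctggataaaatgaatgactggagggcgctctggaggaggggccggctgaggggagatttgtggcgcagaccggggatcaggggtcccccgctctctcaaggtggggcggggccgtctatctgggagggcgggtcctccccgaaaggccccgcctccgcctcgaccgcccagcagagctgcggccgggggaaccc
INSIG1 (chr7:155297628-155297877, plus strand): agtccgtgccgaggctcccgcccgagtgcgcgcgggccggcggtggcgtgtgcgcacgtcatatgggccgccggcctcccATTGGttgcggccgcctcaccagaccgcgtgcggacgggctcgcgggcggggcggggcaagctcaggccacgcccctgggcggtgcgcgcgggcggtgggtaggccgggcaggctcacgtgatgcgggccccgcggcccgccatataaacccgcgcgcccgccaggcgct
INSIG2 (chr2:118088221-118088470, plus strand): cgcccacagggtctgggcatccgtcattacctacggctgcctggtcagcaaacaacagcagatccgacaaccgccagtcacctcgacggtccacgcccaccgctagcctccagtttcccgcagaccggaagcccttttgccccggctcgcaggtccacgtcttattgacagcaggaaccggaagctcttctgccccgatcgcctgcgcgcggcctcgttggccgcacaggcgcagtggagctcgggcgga
SREBF2 was the 1 gene of the 8 with the sterol element core, as TCACCCCAC at positions -133 to -125 from its start, with an NF-Y box at -106 to -102. The core was found in 1.13% of 35116 promoter windows of 250 bases before to 50 after a start, and CCAAT in 34.6%. INSIG1 held 1 NF-Y box, at -170 to -166. STARD4 and MYLIP, not shown, held 2 each, and SREBF1, SCAP, INSIG2 and NPC1 held none. The Sp1 box GGGCGG was in the windows of all 8 genes and in 44.95% of all windows. The E-box CANNTG was in those of SCAP, INSIG1, STARD4 and MYLIP and in 68.7% of all. A DR4 element, here a pair of AGGTCA half-sites on 1 strand with 4 bases between, was in none of the 8 and in 0.0199% of all. SREBF1 was scanned at 1 start only, so what was not found there does not cover any other start of the gene. These matches describe letters and are not evidence of binding.

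SREBF2, which encodes SREBP-2, was lower on every treated array. SREBF2 (GRCh38.p14, chromosome 22, 41833105 to 41907305) showed a signal of 7.75 with No.10-3, 8.54 with 2 µM C-30 and 8.60 with 0.5 µM C-30, against 9.51 with vehicle. The difference with No.10-3 was -1.76, a 3.39-fold lower signal, and only 4 of the 9219 genes past the floor lay below it. With C-30 it was -0.97 at 2 µM and -0.91 at 0.5 µM, just short of 2-fold, and 6.79% and 4.13% of all genes were as low or lower. The C-30 arrays differed by -0.06 between the doses.

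SREBF1, which encodes SREBP-1a and SREBP-1c, was also lower on all treated arrays. SREBF1 (chromosome 17, 17811334 to 17836986) had a signal of 7.56 with No.10-3, 7.06 with 2 µM C-30 and 7.58 with 0.5 µM C-30, against 8.46 with vehicle. The array of 2 µM C-30 carried the lowest of the 4 signals, under its background of 7.15. Its difference from vehicle was therefore at least 2.48-fold, and -1.40 as measured. The differences were -0.90 with No.10-3 and -0.88 with 0.5 µM C-30, and 2.05% and 4.48% of genes were as low or lower. The 1 probe set gives no separate values for the isoforms.

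SCAP, the escort protein gene, stayed near the vehicle signal with No.10-3 and was lower with C-30. SCAP (chromosome 3, 47413681 to 47477127) had signals of 9.50 with No.10-3, 8.76 with 2 µM C-30 and 8.93 with 0.5 µM C-30, against 9.66 with vehicle. The difference from vehicle was -0.16 with No.10-3, -0.90 with 2 µM C-30 and -0.73 with 0.5 µM C-30, none past 2-fold. In the same order, 32.3%, 8.28% and 7.95% of all genes were as low or lower.

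The INSIG proteins retain SCAP and recruit a ligase to HMG-CoA reductase. INSIG1 (chromosome 7, 155297878 to 155310235) had a signal of 7.01 with No.10-3, just under background, 8.39 with 2 µM C-30 and 8.05 with 0.5 µM C-30, against 7.59 with vehicle. It was thus lower with No.10-3, by at least 1.43-fold (-0.58 as measured), and higher with C-30, by 0.80 at 2 µM and 0.46 at 0.5 µM. Between the C-30 doses the higher one had the higher signal, by 0.34, and none of these differences passed 2-fold.

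INSIG2, the form that is not an SREBP target in most cells, had a higher signal on all treated arrays, but within background throughout. INSIG2 (chromosome 2, 118088471 to 118110997) had signals of 6.59 with No.10-3, 6.63 with 2 µM C-30 and 6.58 with 0.5 µM C-30, against 5.03 with vehicle. The differences were 1.56, 1.60 and 1.55. INSIG2 passed the floor only through its treated signals, so no rank among all genes is given for it. The treated arrays lay within 0.05 of each other, so all 3 differences rest on the 1 vehicle signal, which was under the floor. No fold is given because the signals were under background in each comparison.

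Neither gene of cholesterol transport passed 2-fold. NPC1 (chromosome 18, 23506184 to 23586506), whose protein exports cholesterol from lysosomes, had signals of 11.49 with No.10-3, 12.30 with 2 µM C-30 and 11.80 with 0.5 µM C-30, against 11.75 with vehicle. The array of 2 µM C-30 stood above the others, by 0.55 over vehicle and by 0.50 over the lower dose. In these comparisons 16.3% and 10.7% of all genes were as high or higher. The differences with No.10-3 and with 0.5 µM C-30 were -0.26 and 0.05. STARD4 (chromosome 5, 111496033 to 111512535), which encodes a soluble sterol carrier, had signals of 7.16 with No.10-3, 7.05 with 2 µM C-30 and 6.69 with 0.5 µM C-30, against 7.31 with vehicle. Only the No.10-3 signal was above its background, so the No.10-3 difference of -0.15 is inexact and the C-30 values of -0.27 at 2 µM and -0.63 at 0.5 µM lie within background.

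**Figure D1:**
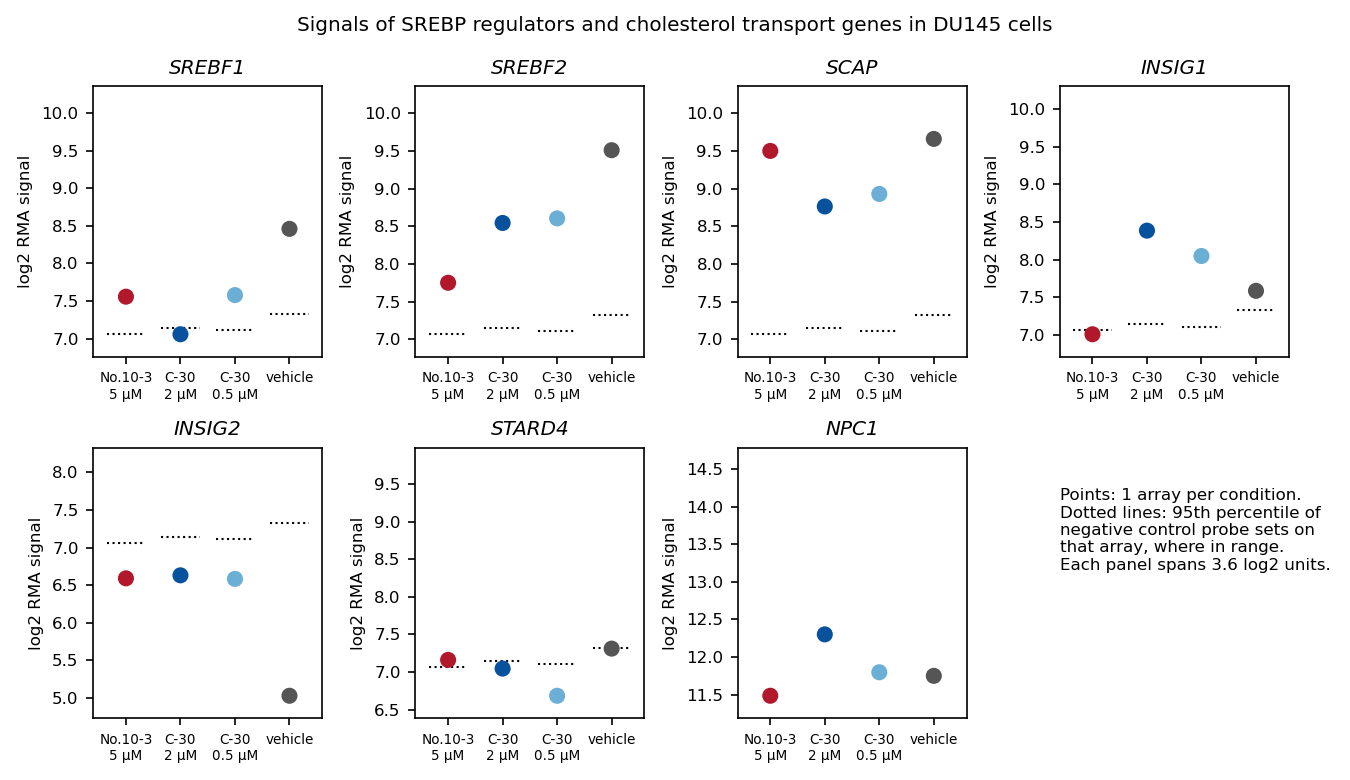
Log2 RMA signal of the 7 measured genes on the 4 arrays, 1 point per array, in panels with their own vertical position and an equal span; dotted lines are the 95th percentile of negative controls. SREBF2 and SREBF1 are highest with vehicle, INSIG1 is lowest with No.10-3 at 7.01, and INSIG2 lies under the dotted lines on all 4 arrays.

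The 7 genes had a median below that of all genes in each comparison with vehicle, and few passed 2-fold. With No.10-3, 6 of 7 were lower and 1 higher, beside 45.9% of all genes lower. The median was -0.26 beside 0.05 over all 9219 genes. Among the lower ones, SCAP (-0.16) and STARD4 (-0.15) lay near the ERCC median of -0.16. Of the 7, 1 was at least 2-fold lower (SREBF2) and 1 past 2-fold upwards (INSIG2, within background), where 1.32% and 4.36% of all genes passed 2-fold in those directions. With 2 µM C-30, 4 of 7 were lower, close to the 53.6% of all genes, with a median of -0.27 beside -0.06 over 9319 genes. SREBF1 was past 2-fold downwards and INSIG2 upwards, against 6.15% and 4.67% of all genes. With 0.5 µM C-30, 4 of 7 were lower, close to the 53.1% of all genes, with a median of -0.63 beside -0.04 over 9267 genes. None was 2-fold lower and INSIG2 was past 2-fold upwards, against 2.77% and 3.40% of all genes. Each INSIG2 count ends once genes within background are left out, and INSIG2 passed the floor only through the treated arrays. All 3 comparisons share the vehicle array, so they are not independent of each other.

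Between 2 µM C-30 and 0.5 µM C-30 none of the 7 genes passed 2-fold, against 1.39% of 9282 genes past 2-fold upwards and 2.18% past it downwards. NPC1 was higher at 2 µM by 0.50 and INSIG1 by 0.34, and the differences of SCAP and SREBF2 were -0.17 and -0.06. SREBF1, under background on the 2 µM array, was lower there by at least 1.35-fold. STARD4 (0.36) and INSIG2 (0.05) were under background on both C-30 arrays, so no direction is read from their differences. No.10-3 was given at 5 µM, a dose at which C-30 was not tested, so the 2 compounds are set side by side only.

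**Figure D2:**
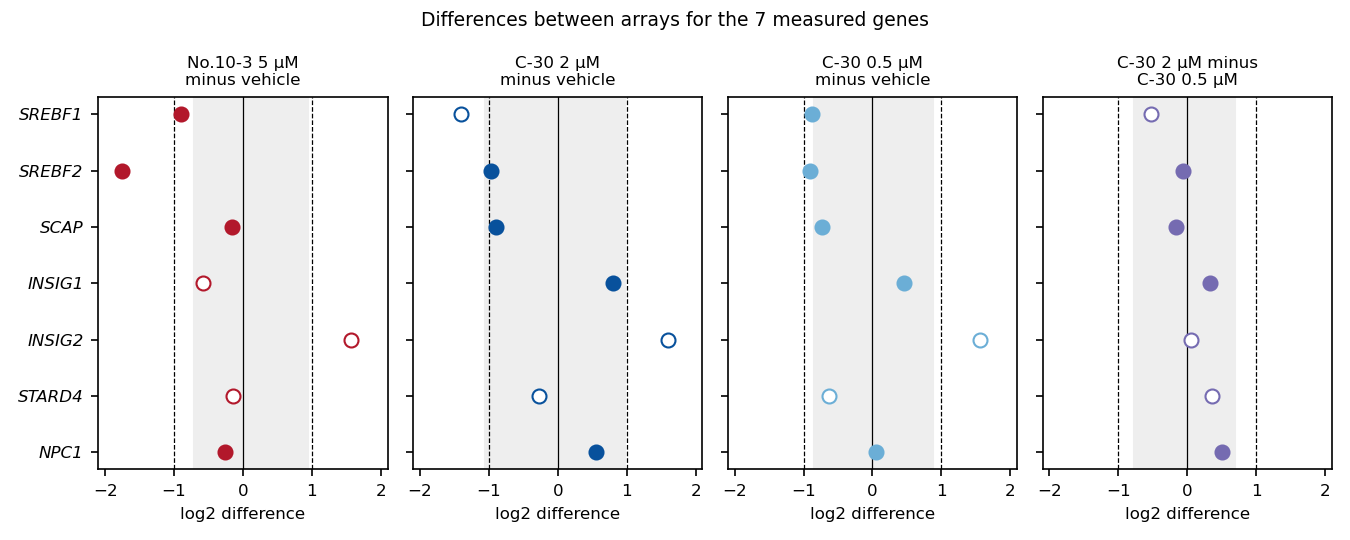
Log2 difference between arrays of the 7 measured genes in 4 comparisons; grey bands run from the 5th to the 95th percentile of all genes past the floor, dashed lines mark 2-fold, and open circles have at least 1 signal under background. SREBF2 at -1.76 is the lowest filled circle with No.10-3, and INSIG2 lies right of the 2-fold line in the 3 comparisons with vehicle.

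Enzymes of sterol synthesis, the main targets of SREBP-2, stood lower with No.10-3. Of 17 measured, 15 were lower, beside 45.9% of all genes, with a median of -0.63 beside 0.05 over all genes. Past 2-fold, 4 were lower and none higher, beside 1.32% and 4.36% of all genes. DHCR7, the last enzyme to cholesterol, had 12.73 with No.10-3 against 14.46 with vehicle (-1.72). The mevalonate pathway gene HMGCS1 had 9.71 against 10.92 (-1.21), and MSMO1, a sterol demethylation gene, 10.22 against 11.35 (-1.14). MVD, also of the mevalonate pathway, had 5.61 against 6.91, both within background.

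With 2 µM C-30 the same list went both ways, 8 of 17 higher and 9 lower, beside 53.6% of all genes lower, with a median of -0.06 that turned positive, up to 0.40, after quantile normalization, lowess correction or centring and with a higher floor. Past 2-fold upwards were 2 of 17, beside 4.67% of all genes. These were IDI1, the isomerase of the mevalonate pathway, at 11.61 against 8.998 with vehicle (2.62), and HMGCS1 at 12.26 against 10.92 (1.34). TM7SF2, a sterol reductase gene, was past 2-fold downwards at 7.50 against 8.96 (-1.46), 1 of 17 and close to the 6.15% of all genes. With 0.5 µM C-30, 11 of 17 were higher and 6 lower, beside 53.1% of all genes lower, with a median of 0.18. IDI1 alone passed 2-fold upwards, as did 3.40% of all genes, at 10.10 against 8.998 (1.10). Between the C-30 doses IDI1 was 1.52 higher at 2 µM, and TM7SF2 and SC5D differed by -1.12 and -1.13, SC5D within background. There 1.39% of all genes were past 2-fold upwards and 2.18% downwards.

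Fatty acid synthesis genes, the main targets of SREBP-1, had a median of -0.22 with No.10-3 over 12 genes past the floor, beside 0.05 over all genes. SCD, the stearoyl-CoA desaturase, and FASN, the fatty acid synthase, were past 2-fold downwards, each at -1.31, beside 1.32% of all genes. With 2 µM C-30 the median over 13 genes was -0.002, beside -0.06 over all genes, with a sign that changed under other settings. FASN at -1.28 and AGPAT2, an acyltransferase of phospholipid synthesis, at -1.11 passed 2-fold downwards, as did 6.15% of all genes. With 0.5 µM C-30, 10 of 12 were lower, beside 53.1% of all genes, with a median of -0.39 beside -0.04. None was past 2-fold, where 3.40% of all genes passed it upwards and 2.77% downwards.

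Of 11 receptors and regulators of lipoprotein uptake, 8 were lower with No.10-3, beside 45.9% of all genes, and 9 with 2 µM C-30, beside 53.6%. With 0.5 µM C-30, 7 of 11 were lower, close to the 53.1% of all genes. The medians were -0.39, -0.50 and -0.33, beside 0.05, -0.06 and -0.04 over all genes. The HDL receptor gene SCARB1 was past 2-fold downwards with No.10-3, at 10.38 against 11.58 with vehicle (-1.20), beside 1.32% of all genes. With 2 µM C-30 these were the lipoprotein receptor gene LRP8 (-1.16) and UBE2D4, which encodes a ubiquitin-conjugating enzyme (-1.01), beside 6.15% of all genes. With 0.5 µM C-30 they were LRP1, another receptor of this family (-1.29), and UBE2D4 (-1.10), beside 2.77% of all genes. None of the 11 passed 2-fold upwards, beside 4.36%, 4.67% and 3.40% of all genes in the same order. The LDL receptor gene was not analysed here.

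Of the LXR list, 5 genes passed the floor with No.10-3 and none passed 2-fold, though 1 did so downwards after quantile normalization, lowess correction or centring. Over all genes, 4.36% passed 2-fold upwards and 1.32% downwards. LPCAT3, a phospholipid remodelling enzyme and LXR target, was past 2-fold downwards with both doses of C-30, at -1.19 and -1.17 for 2 and 0.5 µM. So were 6.15% and 2.77% of all genes at these doses. The LXR receptor gene NR1H3 stood at 1.12 with 0.5 µM C-30 and the exporter gene ABCA1 at 1.46 between the C-30 doses, each within background. In these 2 comparisons 3.40% and 1.39% of all genes were past 2-fold upwards.

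Among 24 genes of SREBP processing and degradation past the floor, 19 were higher and 5 lower with No.10-3, beside 45.9% of all genes lower. The median was 0.24 beside 0.05 over all genes. None passed 2-fold, where 4.36% of all genes did so upwards and 1.32% downwards. With 2 µM C-30, 2 of 24 were past 2-fold each way, beside 4.67% of all genes upwards and 6.15% downwards. Upwards they were SAR1A, a GTPase of the vesicles that leave the endoplasmic reticulum (1.28), and PAQR3, a Golgi anchor of SCAP and SREBP (1.21). Downwards they were SEC24C, a coat subunit of those vesicles (-1.02), and RNF145, a ubiquitin ligase of sterol control (-1.13), the last within background. ERLIN2, which encodes a membrane protein of sterol-regulated degradation, was past 2-fold downwards with 0.5 µM C-30, within background, at -1.43. At that dose 2.77% of all genes were past 2-fold downwards. Between the C-30 doses ERLIN2 was at least 1.55-fold higher at 2 µM, and RNF145 was -1.02, within background. There 1.39% of all genes passed 2-fold upwards and 2.18% downwards.

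The wider list of lysosomal and endoplasmic reticulum cholesterol transport, NPC1 apart, showed no common direction. The medians were -0.03 over 31 genes with No.10-3, -0.07 over 32 with 2 µM C-30 and 0.01 over 31 with 0.5 µM C-30, and the C-30 medians changed sign under other settings. OSBPL8, which encodes a lipid transfer protein, was past 2-fold upwards with No.10-3 (1.49) and with 0.5 µM C-30 (1.12), and NCEH1, a cholesteryl ester hydrolase gene, with No.10-3 (1.12). The shares of all genes past 2-fold upwards were 4.36% with No.10-3 and 3.40% with 0.5 µM C-30. Past 2-fold downwards with 2 µM C-30, beside 6.15% of all genes, were the Hedgehog receptor gene PTCH1 (-1.38) and the lipid carrier gene STARD10 (-1.21). STARD3, a lysosomal cholesterol carrier gene, passed it only as measured (-1.03). It was under background on the treated array, so it is given as at least 1.41-fold lower. With 0.5 µM C-30 STARD10 was past 2-fold downwards (-1.09), beside 2.77% of all genes. The lipid transporter gene ABCA2 passed it only as measured (-1.11). It was under background on the treated array, so it is given as at least 1.95-fold lower. Between the C-30 doses PTCH1 differed by -1.33, where 2.18% of all genes were past 2-fold downwards. A last list of 6 other SREBP-responsive genes had none past 2-fold in any comparison, where 1.32% to 6.15% of all genes passed it in a direction. With 2 µM C-30, 1 gene was past it upwards after quantile normalization or lowess correction. The medians were -0.17, -0.21 and -0.30 for No.10-3, 2 µM C-30 and 0.5 µM C-30, each positive under some other setting.

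**Figure D3:**
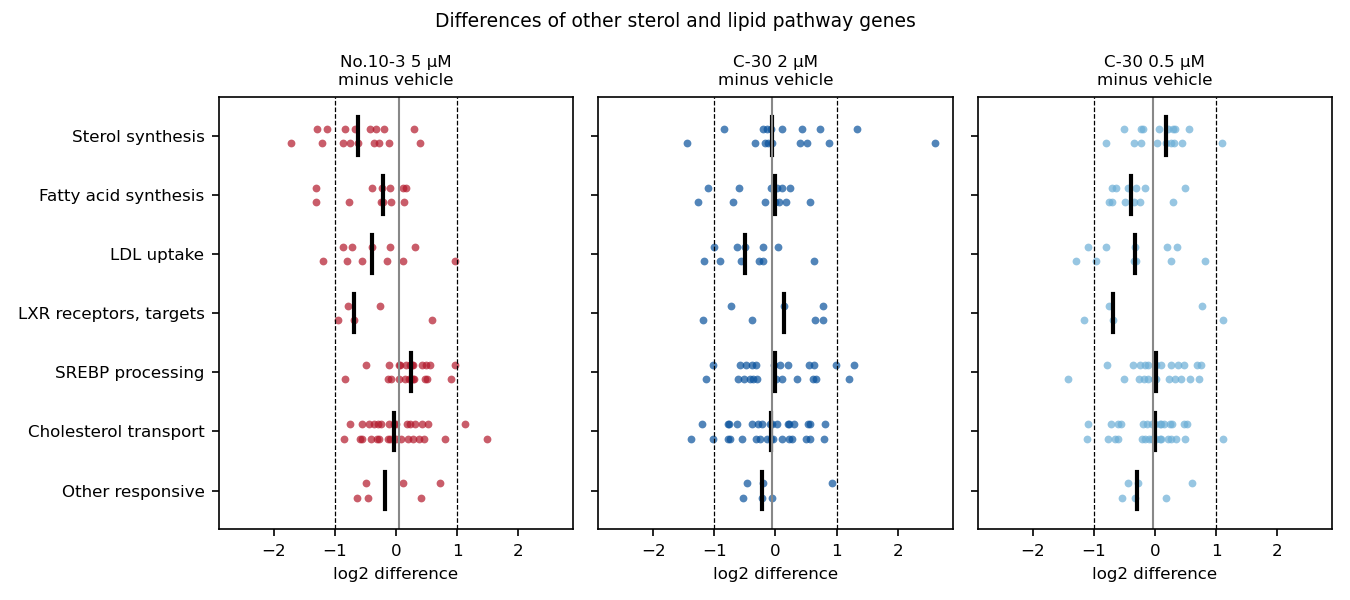
Log2 difference from vehicle of the genes past the floor in 7 pathway lists, 1 point per gene; black bars are list medians, grey lines the median of all genes and dashed lines 2-fold. The sterol synthesis median is -0.63 with No.10-3, -0.06 with 2 µM C-30 and 0.18 with 0.5 µM C-30.

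The genes with the nearest pattern were found by the Euclidean distance over the 3 differences from vehicle, among 5910 genes above background on at least 2 arrays. Nearest to SREBF2 were PPIL2 at a distance of 0.50, RUSC2 at 0.50, GPX3 at 0.57 and SCARB1 at 0.58, and SCARB1 had -1.20 with No.10-3, -0.91 with 2 µM C-30 and -0.81 with 0.5 µM C-30. For SREBF1 they were ZNF280D at 0.08, PWWP3A at 0.10, TKT at 0.11 and ADORA1 at 0.12 as measured, but its signal with 2 µM C-30 was under background, so these distances are inexact. For INSIG2 the nearest as measured were NDFIP2 at 0.15, KIF14 at 0.24, HSP90AA1 at 0.29 and DBF4 at 0.33. INSIG2 itself was above background on none of the arrays and would not have met the rule set for these genes, so no likeness is read from them. These rankings rest on 4 arrays and share the vehicle array, so they describe likeness only.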

How the data were processed

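RNA of DU145 cells, 1 array per condition, was biotin-labelled with a WT PLUS kit, as the labels' protocols state. Per the submitters' processing notes, RMA in Affymetrix Expression Console 1.3.0 gave the deposited log2 signals. The log base was inferred from the values, which reach 19.93, above what scanner readings span, so an unstated rescaling is likely and folds hold only on this scale. For that processing, a genome build was not given in the sources used here.

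The platform annotation gave 1 symbol to 17709 of 24351 probe sets, several to 0 and none to 6642. All 17709 matched RefSeq by Entrez identifier and gave 17687 genes, with the mean taken for the 20 genes with several probe sets. Coordinates and promoters are from RefSeq, GRCh38.p14. All 8 genes matched the promoter table. Background was the 95th percentile of 612 negative control probe sets on each array. Where 1 signal was under background, a fold is given as a bound against that level where the text gives 1, and the measured difference is inexact.

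Differences between 2 arrays were taken per gene and counted at a log2 difference of 1, with no test, since the number of arrays limits the precision. Groups followed the treatment labels. The genes, the lists and the rules were chosen with earlier results of these data known. Named were the 8 genes, the genes of each of 7 lists past the floor and 2-fold (at most 5 per list and comparison), and the 4 genes nearest to each of the 8 that passed 2-fold. Alternatives were a 1.5-fold threshold, other floors, quantile normalization, lowess correction (fraction 0.3), centring, the brightest probe set and the other deposited table, which differed by at most 5e-05. The calculations were tested on simulated data and used Python 3.11.15 with numpy 2.4.6, pandas 2.3.3, statsmodels 0.14.6 and matplotlib 3.10.9.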

Additional observations from a re-analysis of the deposited data

How the results depend on the processing

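No paired analysis was possible because each condition had 1 array. Over the alternatives, 207 values of the 7 genes were recomputed, but only quantile normalization, lowess correction and centring could move a value. A floor leaves a difference as it is, each of the 7 genes had 1 probe set, and the other deposited table held nearly the same signals. Under those 3 settings all kept their sign and moved by less than the robust SD of the ERCC probe sets in that comparison. The side of the 2-fold threshold changed for SREBF1 with No.10-3 only, at -1.01 after quantile normalization and -1.002 after centring. The counts and medians depended on the floor and the threshold, since 7 genes are few. With a floor at the 75th percentile (7.90), 1 gene was past 2-fold with No.10-3 (median -0.58), 1 with 2 µM C-30 (median -0.90) and 0 with 0.5 µM C-30. With a floor at the negative control percentile, chosen after seeing the data, the counts were also 1 (median -0.42), 1 (median -0.90) and 0, because INSIG2 dropped out. At 1.5-fold, 5 genes passed with 2 µM C-30, 2 higher and 3 lower, beside 15.1% and 18.5% of all genes. With 0.5 µM C-30 it was 5, 1 higher and 4 lower, beside 12.2% and 13.4%. With No.10-3 it was 3, 1 higher and 2 lower, beside 14.8% and 8.34%. INSIG2, within background, was among the higher ones each time. STARD4, also within background, was among the lower ones with 0.5 µM C-30. Among all genes past 2-fold the share of higher ones with No.10-3 was 76.7%, against 59.1% after centring, which moved the median of all genes by -0.10. For 2 µM C-30 it was 43.2%, against 55.1% after centring. Of 40 differences of list genes past 2-fold, none changed sign in 304 recomputed values. Only quantile normalization, lowess correction and centring moved any, and 9 fell under 2-fold, for SEC24C, UBE2D4, STARD3 and RNF145. Calls were gained too. With No.10-3, 1 LXR gene passed 2-fold downwards after all 3. With 2 µM C-30, 1 other SREBP-responsive gene passed upwards after the first 2. The processing list there had 3 higher and 1 lower, against 2 and 2, after all 3. Counts over all genes past 2-fold (higher, then lower) moved by over 1.5 times under some settings. With No.10-3 they were 402 and 122, against 1362 and 769 at 1.5-fold, 202 and 51 at the 75th percentile floor, 274 and 68 at the control floor, 278 and 192 after centring, and 453 and 189 with no floor. For 2 µM C-30 they were 435 and 573, against 1405 and 1720 at 1.5-fold, 209 and 377 at the 75th percentile floor and 287 and 435 at the control floor. For 0.5 µM C-30 they were 315 and 257, against 1128 and 1242, then 156 and 153. Between the C-30 doses they were 129 and 202, against 732 and 921 at 1.5-fold, 37 and 88 at the 75th percentile floor, 59 and 123 at the control floor and 213 and 246 with no floor. Signals near background limit what can be said of INSIG2, STARD4 and, with 2 µM C-30, SREBF1.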
